A study of Homo sapiens with 30 samples.

Results

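The genes of the DNA replication machinery were examined in G401 cells after loss of the transcription factor MYC. The set holds 52 genes, listed by name for their known roles, with earlier results of these data already known, out of 18132 entries in the RNA-seq table and 20582 in the PRO-seq table. They fall into 9 roles, from origin licensing to the assembly of chromatin behind the fork. Of the 52, 51 were found in the RNA-seq table and all 51 passed the filter on low counts. RFC2, a subunit of the clamp loader, was not analysed here for its mRNA, and its PRO-seq counts were 0 or 1.

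G401 is a malignant rhabdoid tumour line of the kidney. In the engineered cells, called DTMYC, MYC came from a lentivirus as a fusion to an HA tag and the FKBP12F36V degron, and the gene's own copy had been removed with CRISPR-Cas9, so every DTMYC library, DMSO controls included, carried only the fused protein. dTAG47 is a small molecule that directs proteins carrying this degron to degradation. RNA-seq covered DTMYC and parental cells, each with 3 libraries in DMSO and 3 in 500 nM dTAG47 for 24 h. PRO-seq, which maps engaged RNA polymerase by run-on, had 2 libraries in DMSO and 2 in 500 nM dTAG47 at 4 h in DTMYC cells. MYC ChIP-seq in DTMYC cells had 2 DMSO libraries, numbered 1 and 3, and 3 libraries in 500 nM dTAG47 at 4 h, beside 3 IgG libraries in DMSO. ATAC-seq had 3 libraries in DMSO and 3 in 500 nM dTAG47 at 24 h. The labels do not say whether DTMYC is 1 clone or whether libraries came from separate cultures, so the spread behind each p-value may be technical.

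Before a cell divides, the origin recognition complex, CDC6 and CDT1 load the MCM2-7 ring onto DNA, which licenses an origin. In S phase the CDC7-DBF4 kinase and MCM10 help turn that ring, with CDC45 and the GINS complex, into the active helicase. Polymerase alpha and primase then start each strand, the RFC complex loads the PCNA clamp, polymerases delta and epsilon extend, and FEN1, DNA2 and LIG1 mature Okazaki fragments. Many of these genes are known E2F targets that peak around the start of S phase, and MYC is known to bind E-boxes, of which CACGTG is the canonical form.

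RNA-seq totals ran from 27854207 to 54633745 counts per library, PRO-seq gene body totals from 18209879 to 23256313 and promoter-proximal totals from 1216928 to 1632084. MYC mRNA was 1329, 1353 and 1418 CPM (counts scaled to the library total) in DTMYC cells in DMSO and 1478, 1404 and 1349 CPM in dTAG47. In parental cells it was 215, 267 and 223 CPM in DMSO and 242, 226 and 237 CPM in dTAG47. dTAG47 acts on the protein, so these levels check the engineered line (log2 difference from parental 2.54 in DMSO) and not the depletion. SMARCB1, whose loss defines rhabdoid tumours, was not analysed here. Summed over 8 kidney epithelial markers, of which 3 passed the filter, expression was 0.649 to 0.819 CPM in DTMYC in DMSO, 1.55 to 1.74 CPM in DTMYC in dTAG47, 5.09 to 6.32 CPM in parental cells in DMSO and 5.98 to 6.63 CPM in parental cells in dTAG47. Within that list PAX8 was higher in DTMYC than in parental cells and EPCAM and CDH1 lower (edgeR, DMSO and dTAG47). Over 4 endothelial markers, of which VWF passed the filter, the sums were 1.55 to 2.03 CPM in DTMYC in DMSO, 2.38 to 3.52 CPM in DTMYC in dTAG47, 0.234 to 0.373 CPM in parental cells in DMSO and 0.222 to 0.758 CPM in parental cells in dTAG47. Haematopoietic sums stayed between 0 and 0.527 CPM and neuronal sums between 1.67 and 2.96 CPM. PAX8, EPCAM, CDH1 and VWF were not called in the DTMYC response, EPCAM was called in the difference of the responses (edgeR adjusted p = 0.0485), and the part of these markers in the results below was not tested. Parental DMSO library 3 stood apart from its 2 partners: its genes deviated from the group means by 0.289 on average on the log2 scale, against 0.084 to 0.188 in the other 11 libraries, and its deviation ran against the GC content of the genes (r = -0.70 across genes) where libraries 1 and 2 ran with it (0.53 and 0.55).

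MYC regions lay at the start sites of 22 of the 52 genes. The regions printed here are those whose letters bear on the results: all 7 that hold the canonical E-box CACGTG, then 4 examples, MCM3, MCM7, PCNA and WDHD1, from the genes whose mRNA fell or whose MYC region appeared in both DMSO libraries. All are hg19 sequence on the strand of the gene, 5′ to 3′, with the searched word in capitals. The E-box windows are as follows.
ORC4, chr2:148778351-148778380, minus strand: acgaaaggaggtCACGTGtttgggcgggag
MCM8, chr20:5931158-5931187, plus strand: cggcaccgccccCACGTGttgcacgccgct
POLD1, chr19:50887914-50887943, plus strand: gactgggtggtgCACGTGcgggcttggtgt
POLD2, chr7:44162843-44162872, minus strand: tcactcgttagaCACGTGtgcggagcctgt
POLE3, chr9:116172669-116172698, minus strand: gacactgtaggcCACGTGgggcggaacgga
RFC4, chr3:186524736-186524765, minus strand: agaagtaaaagcCACGTGtcctcaagaggg
DNA2, chr10:70231782-70231811, minus strand: ggtgaggggcccCACGTGgaacgcgccggc

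Relative to the annotated start site nearest the middle of the region, the E-box lay at -75 in ORC4, -128 in MCM8, +296 in POLD1, +101 in POLD2, -24 in POLE3, -269 in RFC4 and -69 in DNA2. The RefSeq promoter windows described below can use another start, and those of ORC4 and POLE3 held no CACGTG. The remaining 15 regions hold no CACGTG, which leaves open the rest of each promoter. MCM3 and WDHD1 had a MYC region in both DMSO libraries. The MCM3 windows, in the first exon of its longer transcripts, show the related word CACGCG and then an E2F-like word, and the WDHD1 stretch is the gap between its start and the first exon of SOCS4.
MCM3, chr6:52149494-52149522, minus strand: cctgggaacctcCACGCGactttggtgga
MCM3, chr6:52149526-52149554, minus strand: gttcggaagttTTCGCGCcggggtggagt
WDHD1, chr14:55493824-55493947, minus strand, CACGCG: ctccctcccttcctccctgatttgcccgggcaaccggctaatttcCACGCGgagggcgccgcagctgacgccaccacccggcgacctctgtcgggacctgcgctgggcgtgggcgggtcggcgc

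The E2F-like words searched, on both strands, were TTCCCGC, the related TTCGCGC, and the related TTGGCGC. MCM7, whose mRNA fell, has 2 of them in the stretch shown, which lies between exons and upstream of the start site nearest its MYC region. PCNA, whose mRNA also fell, has 4 in the intronic stretch shown, and overlapping matches are marked as 1 run of capitals.
MCM7, chr7:99698493-99698612, minus strand: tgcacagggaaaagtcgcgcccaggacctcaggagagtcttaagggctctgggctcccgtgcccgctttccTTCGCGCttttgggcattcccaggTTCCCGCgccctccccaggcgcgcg
PCNA, chr20:5099981-5100150, minus strand: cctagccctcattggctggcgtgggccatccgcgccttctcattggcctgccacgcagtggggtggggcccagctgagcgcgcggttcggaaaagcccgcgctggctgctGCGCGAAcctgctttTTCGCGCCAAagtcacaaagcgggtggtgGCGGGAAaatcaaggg

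After 24 h of dTAG47 in DTMYC cells, 5 of the 51 replication mRNAs fell and none rose. The 5 were MCM3, MCM4 and MCM7, which are subunits of the replicative helicase ring, PCNA, the sliding clamp, and FEN1, the flap endonuclease that trims Okazaki fragments. The falls ran from 15.4% for PCNA to 19.8% for MCM7, and in each all 3 dTAG47 libraries lay below all 3 DMSO libraries. The share lower among the 51 was 9.8%, and among all 13401 genes tested 4.44% were lower and 4.27% higher.

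MCM7 was at 489, 449 and 502 CPM in DMSO and at 390, 388 and 376 CPM in dTAG47 in DTMYC cells. In parental cells it was at 720, 784 and 670 CPM in DMSO and at 764, 733 and 708 CPM in dTAG47. The DTMYC groups did not overlap and the parental groups did. MCM7 fell by 0.32 on the log2 scale (SE 0.07, n = 3 per group, adjusted p = 0.0207, edgeR quasi-likelihood test) in DTMYC cells, and its parental change was 0.02 (SE 0.07, adjusted p = 0.915).

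MCM4 was at 367, 370 and 378 CPM in DMSO and 304, 306 and 314 CPM in dTAG47 in DTMYC cells, without overlap. In parental cells it was at 496, 439 and 422 CPM in DMSO and 443, 433 and 427 CPM in dTAG47. It fell by 0.27 (SE 0.07, edgeR adjusted p = 0.0277) in DTMYC cells, against -0.06 (SE 0.07, adjusted p = 0.684) in parental cells, whose groups overlapped.

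MCM3 was at 364, 338 and 367 CPM in DMSO and 305, 298 and 294 CPM in dTAG47 in DTMYC cells. The parental levels were 565, 525 and 483 CPM in DMSO and 538, 531 and 532 CPM in dTAG47, and they overlapped. MCM3 fell by 0.25 (SE 0.07, edgeR adjusted p = 0.0397) in DTMYC cells and differed by 0.03 (SE 0.07, adjusted p = 0.875) in parental cells.

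PCNA was at 318, 314 and 334 CPM in DMSO and 265, 269 and 283 CPM in dTAG47 in DTMYC cells. The parental levels were 221, 214 and 240 CPM in DMSO and 192, 207 and 211 CPM in dTAG47, so here all 3 parental dTAG47 libraries also lay below all 3 DMSO libraries. PCNA fell by 0.24 (SE 0.07, edgeR adjusted p = 0.0487) in DTMYC cells, and its parental change was -0.14 (SE 0.07, adjusted p = 0.339).

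FEN1 was at 154, 149 and 163 CPM in DMSO and 133, 124 and 130 CPM in dTAG47 in DTMYC cells. In parental cells it was at 212, 205 and 181 CPM in DMSO and 195, 199 and 186 CPM in dTAG47, and these groups overlapped. FEN1 fell by 0.27 (SE 0.08, edgeR adjusted p = 0.0487) in DTMYC cells, against -0.04 (SE 0.08, adjusted p = 0.792) in parental cells.

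**Figure D1:**
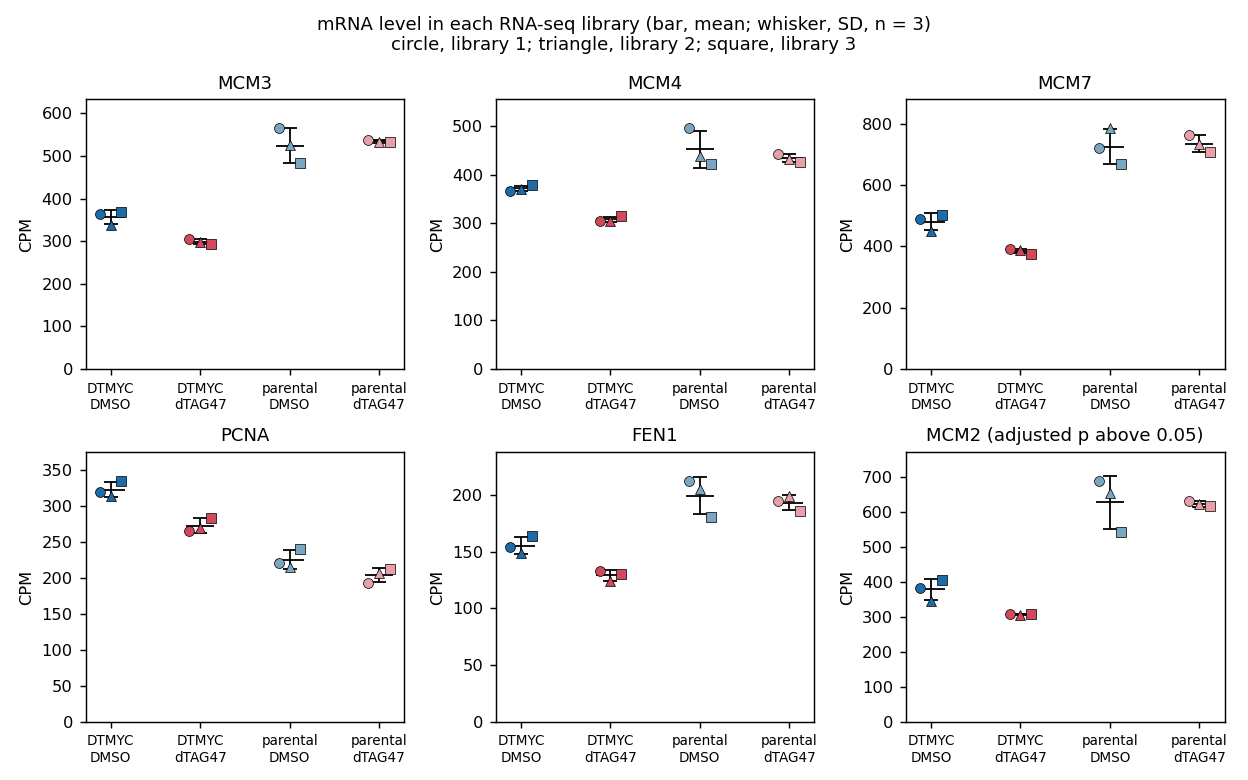
mRNA level in CPM (vertical axis, from 0) of the 5 genes that fell in DTMYC cells and of MCM2, by line and treatment; points are the 3 libraries of each group, the bar is the mean and the whisker the SD. In DTMYC cells the dTAG47 points lie below the DMSO points in all 6 panels, and in parental cells they do so for PCNA.

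The other members are taken by role. Among the 9 licensing genes none passed the test and 7 estimates were below 0, from -0.25 for CDT1, the MCM loading factor (adjusted p = 0.126), to 0.12 for ORC3. All 8 MCM genes had estimates below 0. MCM2, the next in line, was at 384, 347 and 407 CPM in DMSO and 309, 306 and 307 CPM in dTAG47, with a log2 change of -0.30 (SE 0.09) and an edgeR adjusted p of 0.0507, while MCM8, a helicase outside the replicative ring, was at -0.04.

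Among CDC45, the 4 GINS genes, CDC7 and DBF4 none passed, with estimates from -0.20 for DBF4 to 0.02 for GINS1. The 10 polymerase and primase genes gave no call either, and they ran from -0.26 for POLD1, the catalytic subunit of polymerase delta (adjusted p = 0.139), to 0.14 for POLA2. In the clamp loader, RFC3 had the most negative estimate of all members, -0.42, but with an SE of 0.14 its adjusted p was 0.0841, and RFC4 was at 0.01.

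The single-strand binding proteins RPA1, RPA2 and RPA3 stayed between -0.04 and 0.08, and none passed. In Okazaki maturation LIG1, the ligase, was at -0.02 and DNA2, a nuclease-helicase, at 0.05. None of the 4 fork protection genes passed, from TIPIN at -0.26 (adjusted p = 0.151) to CLSPN at 0.13. CHAF1A, the more abundant subunit of the chromatin assembly factor, was at 93.2, 92.2 and 92.2 CPM in DMSO and 84.5, 79.8 and 80.1 CPM in dTAG47. These groups did not overlap, but CHAF1A and CHAF1B did not pass the test, with estimates of -0.18 (adjusted p = 0.176) and -0.09 (adjusted p = 0.659).

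Across the 51, 40 estimates were below 0, or 78.4%, against 44.2% of all genes tested. All dTAG47 libraries lay below all DMSO libraries for 25 members and above them for 2, POLA2 and CLSPN, against 20.0% and 25.2% of all genes. The median log2 change was -0.11 over the members and 0.03 over all genes. The members share these 6 libraries, so the counts describe the libraries and are not independent observations.

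In parental cells, which lack the degron, dTAG47 gave 0 calls among the members by edgeR and 0 by DESeq2, with 2 higher and 8 lower at an unadjusted p under 0.05. Among all genes 0.104% were higher and 0.0224% lower by edgeR, 0.930% and 0.796% by DESeq2, and 6.95% and 8.53% at the unadjusted p. The members' median was -0.07, beside -0.05 over all genes. GC content moved with this response, with r = 0.67 between exon GC content and log2 change across the 51 members and 0.25 across all genes, against -0.27 and -0.09 in DTMYC cells.

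The difference between the DTMYC and parental responses gave no member call (0 by edgeR and 0 by DESeq2, with 1 higher and 6 lower at an unadjusted p under 0.05) where 0.597% of all genes were higher and 0.59% lower by edgeR, 1.70% and 1.39% by DESeq2, and 10.9% and 8.26% at the unadjusted p. In this fit the 5 falls were not shown to differ from the parental response. Without parental DMSO library 3 the difference called 9 members, all lower, with MCM3 and MCM7 among them, where 9.58% of all genes were lower and 8.30% higher. With offsets for GC content and length, a setting chosen after seeing the data, it called 10, all lower, with MCM3, MCM7 and FEN1 among them, where 8.51% were lower and 7.30% higher. MCM4 and PCNA were called in neither. For MCM7 that difference was -0.34 (SE 0.10, adjusted p = 0.111), and for PCNA -0.10 (SE 0.10, adjusted p = 0.611).

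The count of 5 changed with the libraries fitted and with the scaling. Fitted on the 6 DTMYC libraries alone, 24 members were lower and none higher, where 19.9% of 12594 genes were lower and 16.5% higher. Without parental DMSO library 3 the count was 18 lower and none higher, where 16.6% of all genes were lower and 12.7% higher, and with upper quartile factors or without any 1 of 5 of the DTMYC libraries it was 0. The estimates of the 5 genes stayed below 0 in all 19 alternatives run. As their groups did not overlap, leaving out a library could hardly turn that sign. The call itself held in 13 (MCM7), 10 (MCM4), 7 (PCNA), 6 (MCM3) and 6 (FEN1) of the 19. All 5 genes were among the 24 and among the 18. Besides them, the 24 held MCM2, MCM5, MCM6 and MCM10, and in licensing ORC1, ORC5, CDC6 and CDT1. They also held GINS2, DBF4, PRIM1, POLD1, POLD2, POLD3, POLE3, RFC3, RFC5, TIPIN and CHAF1A, and none of the single-strand binding genes. The 18 were all among the 24.

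**Figure D2:**
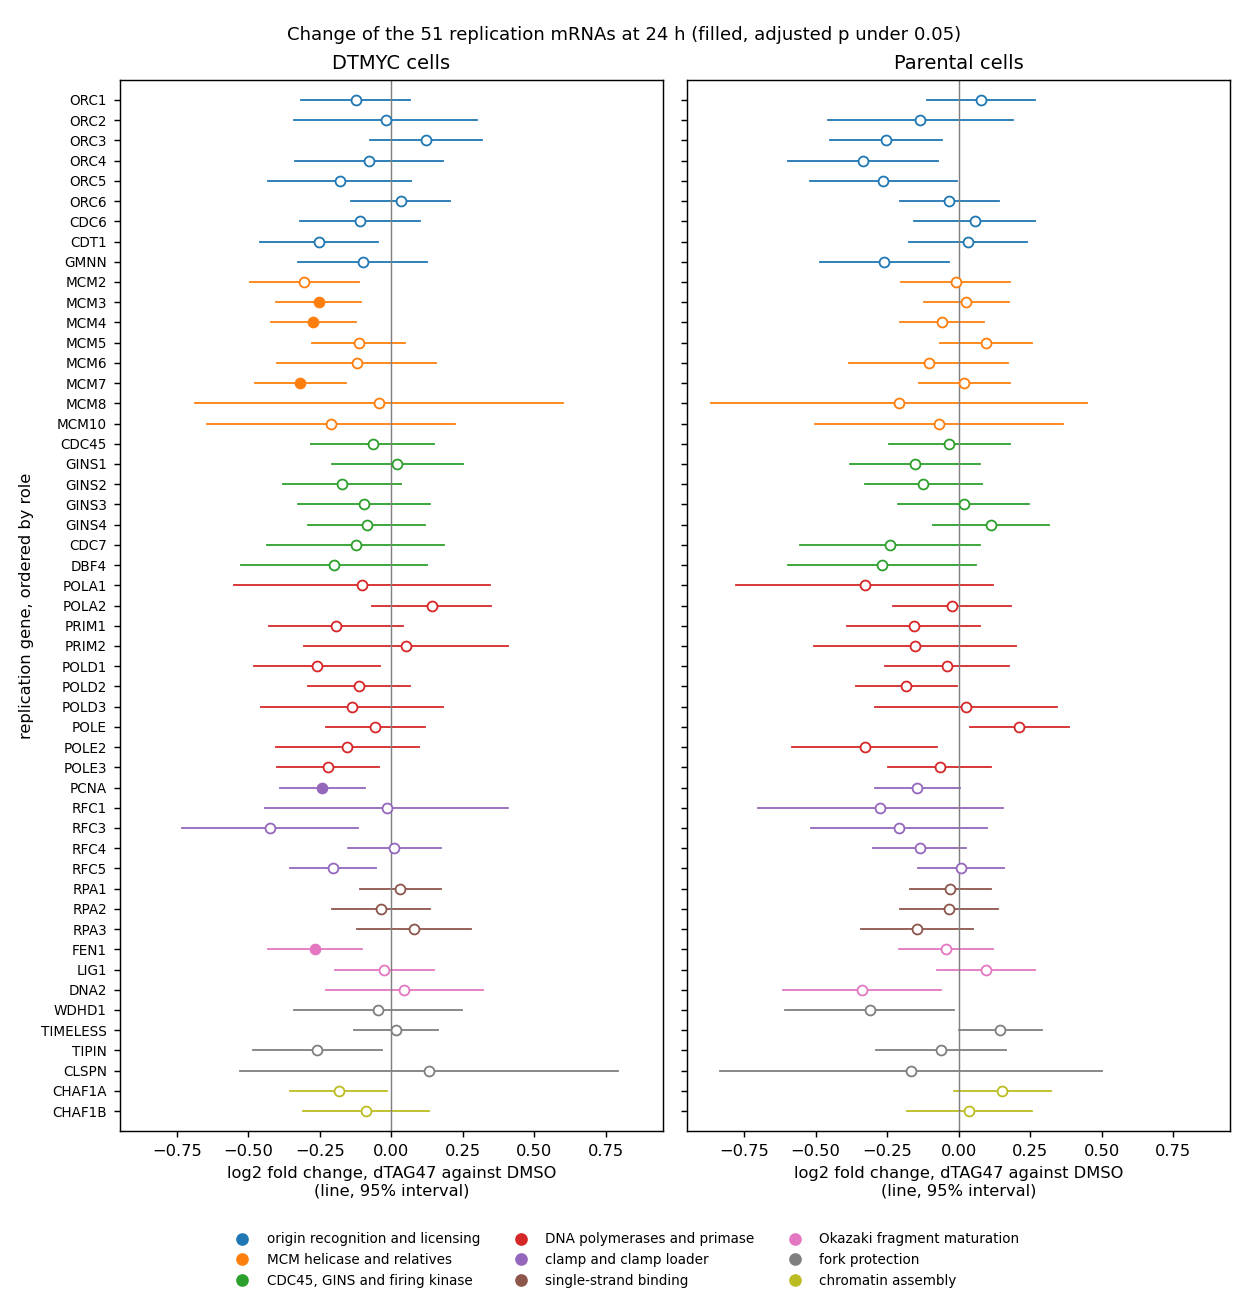
log2 fold change of mRNA, dTAG47 against DMSO, for the 51 members ordered by role (vertical axis) in DTMYC cells (left) and parental cells (right); lines are 95% intervals and filled points passed the test. The 5 filled points, MCM3, MCM4, MCM7, PCNA and FEN1, are all in the left panel and all below 0.

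Other genes around replication were taken from lists of known roles. Of 50 further replication genes tested in DTMYC cells, 2 were lower and none higher, a share near the 4.44% of all genes that were lower. DCTPP1, a pyrophosphatase that clears modified dCTP, was at 96.2, 89.6 and 103 CPM in DMSO and 64.1, 62.6 and 63.7 CPM in dTAG47, and fell by 0.60 (SE 0.10, edgeR adjusted p = 0.00498). RNASEH2B, a subunit of ribonuclease H2, fell by 0.33 (adjusted p = 0.0379).

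Among 23 regulators of S phase entry 3 were lower and none higher, or 13% lower, beside 4.44% of all genes. They were TFDP1, the dimer partner of E2F factors (-0.42, edgeR adjusted p = 0.00988), E2F4 (-0.36, adjusted p = 0.0239) and CDC25A, the phosphatase that activates CDK2 (-0.33, adjusted p = 0.0206). Of 20 mitotic genes none was called by edgeR, and their median was -0.01. At an unadjusted p under 0.05, 1 was higher and 1 lower, where 12.4% of all genes were higher and 11.3% lower. In a bulk sample, fewer cells in S phase and less RNA per cell cannot be told apart.

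The MYC ChIP-seq regions are the union of the authors' peaks in DMSO libraries 1 and 3, assigned to a gene when the region's midpoint lay within 1000 bases of an annotated start site. Such a region was found for 22 of 52 members, or 42.3% (exact 95% binomial interval 28.7 to 56.8), against 25.2% of 12819 genes. Regions built from peaks in both libraries were found at 6 members, MCM3, MCM4, MCM7, POLE3, RFC4 and WDHD1, or 11.5% (4.35 to 23.4), against 7.92% of all genes. Intervals cover counting error only.

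By role, regions were listed for 4 of 9 licensing genes (ORC2, ORC3, ORC4 and ORC6), 4 of 8 MCM genes (MCM3, MCM4, MCM7 and MCM8) and 2 of 7 in the CDC45, GINS and kinase group (CDC7 and DBF4). They were listed for 5 of 10 polymerase genes (POLD1, POLD2, POLE, POLE2 and POLE3), 3 of 6 clamp genes (PCNA, RFC3 and RFC4) and 1 of 3 single-strand binding genes (RPA3). DNA2 was the 1 of 3 in Okazaki maturation, WDHD1 and TIPIN were 2 of 4 in fork protection, and neither CHAF1A nor CHAF1B had one.

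The peak score, the authors' own value, in which a higher number means a smaller q-value from the peak caller, was highest for MCM4 in DMSO library 1 at 216, where library 3 gave 42. MCM7 scored 91 and 129, POLE3 141 and 97, RFC4 64 and 52, MCM3 51 and 52, and WDHD1 45 and 67 in libraries 1 and 3. The other 16 regions came from 1 library, 12 from library 1 and 4 from library 3, so most members' regions were not seen in both DMSO libraries.

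After 4 h of dTAG47, peaks overlapped 3 of these 22 regions in library 1 (MCM4 at 63, POLE3 at 81 and RPA3 at 41) and 2 in library 3 (MCM4 at 70 and POLD2 at 34), and none in library 2. Such a region was thus found at 5.77% of the 52 members in library 1, beside 2.31% of 12819 genes. In library 3 the shares were 3.85% and 0.944%. These shares are over all members or genes, with or without a DMSO region. A DMSO region was itself more frequent at members, 42.3% against 25.2%, so they do not measure how often a region was kept. The whole lists also shrank, from 4010 and 1519 peaks in DMSO to 408, 7 and 193 in dTAG47. Peaks were called in each library separately, and the IgG libraries were not used here. Several regions face a second gene, such as AP4M1 at MCM7, PRKDC at MCM4, C9orf43 at POLE3 and SOCS4 at WDHD1, and a peak there cannot be given to 1 of the pair. The PCNA region (chr20:5099981-5100532) lies inside the gene, near an annotated start at 5100604, while the transcript counted in PRO-seq starts at 5107268.

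**Figure D3:**
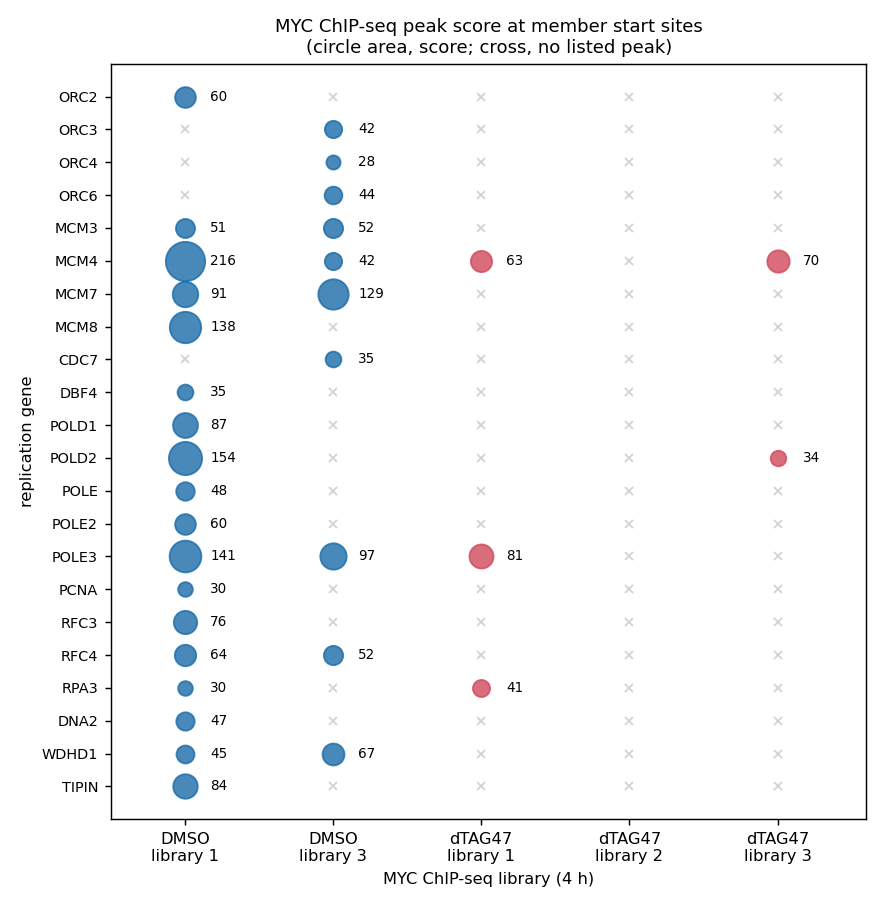
Peak score of the authors' MYC ChIP-seq peaks at the 22 member start sites with a DMSO region (rows), by library (columns); the circle area is proportional to the score printed beside it and a cross marks no listed peak. MCM3, MCM4, MCM7, POLE3, RFC4 and WDHD1 have a circle in both DMSO columns, and the dTAG47 columns hold 5 circles in all.

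The words in these regions can be set against other MYC regions at start sites. In a 200-base window around the midpoint, CACGTG was found in 2 of 22 member regions (9.09%) and in 18.9% of 2949 regions at start sites of tested genes. CACGCG was found in 22.7% and 22.4%. The E2F-like words were found in 8 of 22 (36.4%) against 13.5%, and CCAAT, the word bound by NF-Y, in 27.3% against 15.2%.

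Over the whole regions, which differ in width, 7 of 22 held CACGTG, 11 CACGCG, 17 an E2F-like word and 14 CCAAT. The promoter table of RefSeq (GRCh38.p14, from 250 bases before to 50 after the start) matched 45 of the 52 members. There an E2F-like word was present in 31 of 45 (68.9%), against 17.7% of 10330 promoters of tested genes, and CCAAT in 55.6% against 36.0%. The share with an E2F-like word was 57.9% in the 19 members with a MYC region and 76.9% in the 26 without one. CACGTG was in 17.8% of the members' promoters against 10.1%. Of the genes whose mRNA fell, MCM7 and FEN1 held 1 CACGTG each in this window and MCM3 and PCNA held none. MCM4 was not among the 45. A match of letters is a description and not a binding site.

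Among the 6 members with a MYC region in both DMSO libraries, 3 fell in mRNA (MCM3, MCM4 and MCM7), with a median log2 change of -0.24. Among all tested genes of that kind 16.2% of 1015 fell and the median was -0.15. Among the 16 members with a region in 1 library 1 fell, PCNA, or 6.25%, and the median was -0.10, beside 8.34% and -0.04 for all genes of that kind. Among the 29 without a region 1 fell, FEN1, and the median was also -0.10. For all genes without a region 2.49% fell and 5.57% rose, with a median of 0.07, so the members without a region lay below the other genes of their class. POLE3, another gene with a region in both libraries, was at 102, 98.6 and 106 CPM in DMSO and 86.8, 89.9 and 86.1 CPM in dTAG47, without overlap. The log2 changes of the remaining genes of that kind were POLE3 at -0.22 (adjusted p = 0.122), WDHD1 at -0.05 and RFC4 at 0.01.

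ATAC-seq peaks covered a start site of 48 of the 52 members in all 6 libraries, or 92.3% (81.5 to 97.9), against 68.5% of all tested genes. The 4 exceptions were MCM5 and RFC1, covered in 5 libraries, CHAF1A in 4, and CDT1 in 2, which were DMSO library 2 (score 75) and dTAG47 library 3 (score 24). No member lost its peak in all dTAG47 libraries. At MCM7 the scores were 423, 290 and 124 in DMSO and 259, 109 and 287 in dTAG47, and the groups overlapped. Scores scale with library depth and were not tested.

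PRO-seq at 4 h gave no call for any gene in the gene body (0.0% of 13397 genes, edgeR), so none of the 51 members tested was called. At an unadjusted p under 0.05, 3 members were lower and none higher, or 5.88% lower, beside 5.92% of all genes lower and 3.77% higher, so that count is at the background. DESeq2 also called 0 members, and 0.0283% of all genes higher and 0.345% lower. Estimates were below 0 for 38 of 51 members (74.5%), against 46.7% of all genes, and the median was -0.08, beside 0.02. That median moved with single libraries, to -0.01 without DMSO library 1, -0.13 without DMSO library 2, -0.18 without dTAG47 library 1 and -0.03 without dTAG47 library 2. With 2 libraries per group the precision is limited. With the replicate number as a block, edgeR called 17 members lower and 1 higher, where 15.9% of all genes were lower and 16.6% higher. The labels do not say whether same-numbered libraries are pairs, so the absence of calls holds only for the fit without the block.

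The 3 members lower at the unadjusted p without the block were POLE3, RFC3 and ORC5. POLE3, a histone-fold subunit of polymerase epsilon whose MYC region holds an E-box printed above, had 20.6 and 18.9 CPM in DMSO and 14.1 and 14.1 CPM in dTAG47. Both dTAG47 libraries were below both DMSO libraries, and the log2 change was -0.49 (SE 0.14, edgeR unadjusted p = 0.0119, adjusted p = 0.435).

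RFC3 had 215 and 205 CPM in DMSO and 175 and 180 CPM in dTAG47, with no overlap (-0.24, SE 0.08, edgeR adjusted p = 0.465). ORC5 had 157.5 and 155 CPM in DMSO and 138 and 129 CPM in dTAG47, also without overlap (-0.23, SE 0.08, edgeR adjusted p = 0.489).

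The 5 genes whose mRNA fell all had gene body estimates below 0. They were -0.14 for MCM7, -0.23 for MCM4, -0.26 for MCM3, -0.11 for PCNA and -0.27 for FEN1, and none passed the test without the block. PCNA had 187 and 279 CPM in DMSO and 169 and 261 CPM in dTAG47, so the groups overlapped. With the replicate block MCM3, MCM4, MCM7 and PCNA were among the members called lower.

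Promoter-proximal reads gave no call among 50 members or among all 10226 genes (0.0%, edgeR), with 1 member lower and none higher at an unadjusted p under 0.05, where 3.76% and 2.71% of all genes were. That member was DNA2, with 107 and 107 counts in DMSO and 45 and 66 counts in dTAG47 (-0.64, SE 0.23, edgeR unadjusted p = 0.0143, adjusted p = 0.661), while its gene body change was 0.00. The change of promoter-proximal relative to gene body signal, a measure of pausing, gave no call among 50 members or 10129 genes (0.0%, edgeR), and 1 member, again DNA2, was lower and none higher at an unadjusted p under 0.05, where 1.49% and 0.0889% of all genes were. RPA3 had no promoter-proximal reads in the table, whose transcript begins far from the start site that carries its MYC region.

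Set side by side, nascent RNA at 4 h and mRNA at 24 h come from separate libraries. Both estimates were below 0 for 33 of 51 members (64.7%) and for 32.9% of the 11237 genes in both tables, and both were above 0 for 6 members. Across the 51 members Pearson's r between the 2 estimates was 0.64 and Spearman's rho 0.67, and across all 11237 genes they were 0.53 and 0.63. These are correlations across genes that share libraries, so the genes are not independent replicates.

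**Figure D4:**
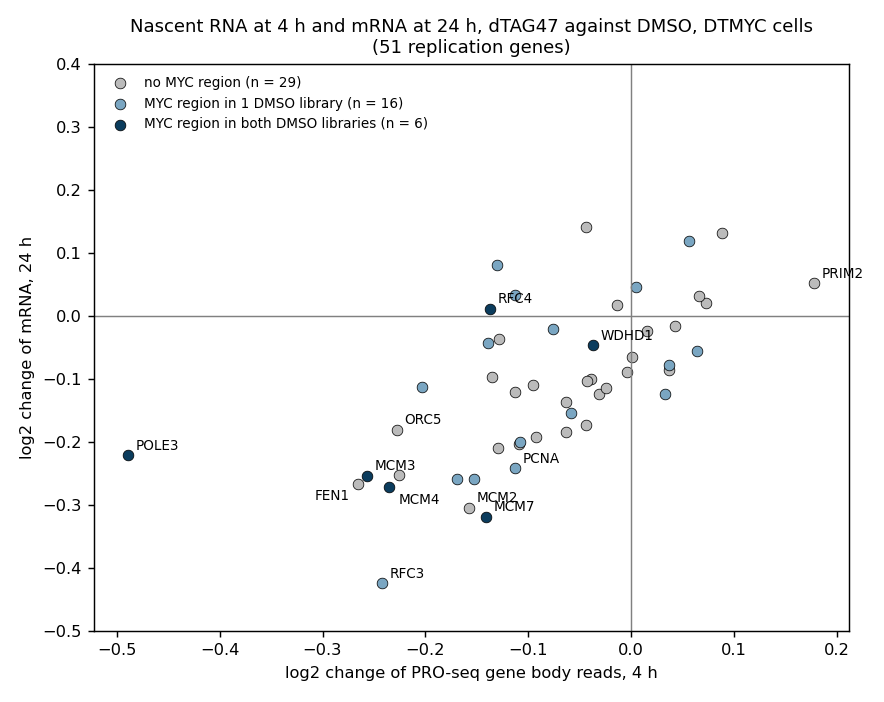
log2 change of PRO-seq gene body reads at 4 h (horizontal axis) and of mRNA at 24 h (vertical axis) for 51 members in DTMYC cells; colour gives the number of DMSO libraries with a MYC region. Most points, 33 of 51, lie in the lower left, below 0 on both axes, with POLE3 farthest left at -0.49 and RFC3 lowest at -0.42.

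DTMYC and parental cells differed widely, as 36% of all genes were higher and 37.3% lower in DTMYC in DMSO. Of the members 19 were higher and 20 lower, and some roles, but not all, held calls in both directions. In dTAG47 20 were higher and 21 lower, where 37.4% and 38.9% of all genes were. The member shares are near the background of this comparison, and the 2 comparisons hold different libraries of the same lines.

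Among the origin recognition genes ORC2, ORC3, ORC4 and ORC5 were higher in DTMYC in DMSO, as was CDC6, and CDT1 was lower. ORC5 had the largest difference, with 42.2, 47.6 and 43.1 CPM in DTMYC and 16.29, 16.97 and 21.97 CPM in parental cells, without overlap (log2 difference 1.27, SE 0.12, edgeR adjusted p = 1.04e-06). ORC2 had 81.5, 91.8 and 81.6 CPM against 39.5, 33.8 and 55.7 CPM, also without overlap (0.98, SE 0.15, adjusted p = 7.57e-05).

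The helicase genes went both ways. MCM2, MCM3, MCM4, MCM5 and MCM7 were lower in DTMYC, from -0.73 for MCM2 to -0.28 for MCM4, MCM8 and MCM10 were higher, and MCM6 was not called (0.20, adjusted p = 0.176). MCM8 had 44.7, 47.4 and 48.4 CPM in DTMYC and 12.69, 13.02 and 34.99 CPM in parental cells, the last in the library that stood apart (1.21, SE 0.30, edgeR adjusted p = 0.00295). Without that library the MCM8 difference was 1.85.

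CDC7 and DBF4, the 2 subunits of the firing kinase, were both higher in DTMYC, and CDC45, GINS1 and GINS2 were lower. CDC7 had 64.7, 78.6 and 68.0 CPM against 31.5, 34.2 and 47.6 CPM, without overlap (0.90, SE 0.14, edgeR adjusted p = 0.000117). GINS2 had 51.6, 50.2 and 55.5 CPM against 101, 96.6 and 79.3 CPM, also without overlap (-0.82, SE 0.09, adjusted p = 7.89e-06).

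Of the polymerase genes POLA1, PRIM1, POLD3 and POLE2 were higher, and POLA2, PRIM2, POLD1, POLD2 and POLE lower, so subunits of 1 enzyme lay on both sides. PRIM2, the large primase subunit, had 45.2, 43.0 and 42.7 CPM in DTMYC and 64.7, 62.0 and 106 CPM in parental cells, the last again in library 3 (-0.83, SE 0.16, edgeR adjusted p = 0.0006). Without that library it was -0.55.

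PCNA, RFC1 and RFC3 were higher in DTMYC, and RPA1 and RPA3 lower. RPA3 had 35.9, 36.7 and 38.0 CPM against 80.4, 68.4 and 74.3 CPM, without overlap (-1.01, SE 0.09, edgeR adjusted p = 8.32e-07). LIG1 had the most negative difference of the members, with 67.0, 60.1 and 67.0 CPM against 138, 141 and 120 CPM (-1.04, SE 0.08, adjusted p = 1.72e-07), and FEN1 was lower by a smaller step (-0.36, adjusted p = 0.000924).

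WDHD1, TIPIN and CLSPN, which stabilise the fork, were higher in DTMYC and TIMELESS, the partner of TIPIN, was lower (-0.60, edgeR adjusted p = 5.68e-06). CLSPN had 59.0, 58.6 and 58.0 CPM in DTMYC and 22.0, 21.0 and 59.1 CPM in parental cells, so the groups overlapped through library 3, and the difference was 0.78 with it and 1.43 without it. CHAF1A, the large subunit of the chromatin assembly factor, was lower (-0.42, adjusted p = 0.000354) and CHAF1B was not called (-0.07).

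In dTAG47 the largest differences were MCM8 (1.38), ORC5 (1.35), RFC1 (1.14) and ORC2 (1.10) on the higher side and LIG1 (-1.16), MCM2 (-1.02), MCM7 (-0.93) and POLD1 (-0.92) on the lower side. All 8 passed the test in edgeR and in each the groups did not overlap, beside 41.3% of all genes higher and 43.1% lower in every library.

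GC content moved with these differences. The exons of the 19 members higher in DTMYC in DMSO had a median GC content of 41% (37.7 to 45.3) and those of the 20 lower members 52.1% (35.2 to 64.3), where the median of all tested genes was 48.8%. Across the 51 members r between GC content and the log2 difference was -0.70 in DMSO and -0.78 in dTAG47. Across all genes r was -0.225 and -0.287. The rank correlation rho was -0.74 and -0.81 across the members and -0.44 and -0.52 across all genes. The line and anything that differed between the libraries of the lines cannot be told apart in this design.

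With offsets for GC content and length in each library, a setting chosen after seeing the data, the DMSO comparison gave 20 members higher and 17 lower, where 42.6% and 31.4% of all genes were, and the dTAG47 comparison 12 and 20, where 39.9% and 31.0% of all genes were. The offsets also moved the median of all genes by 0.10 in both. The differences of ORC3 (-0.08), CDC45 (0.00), FEN1 (0.10) and CHAF1A (0.04) in DMSO then took the opposite sign to the ones given above, as did those of RFC3 (-0.12), DNA2 (-0.19) and TIPIN (-0.13) in dTAG47. LIG1 (-0.65), RPA3 (-0.92), PRIM2 (-1.32), GINS2 (-0.54), ORC5 (0.90), MCM8 (0.99), ORC2 (0.52) and CDC7 (0.44) kept their direction in DMSO and still passed the test. CDT1 (-0.10), ORC4 (0.11) and WDHD1 (0.08) kept their direction in DMSO but no longer passed. In dTAG47 11 members kept their direction without passing, namely ORC3, ORC4, MCM10, CDC45, GINS4, DBF4, POLA2, PRIM1, POLD2, POLD3 and WDHD1, with values from -0.16 for GINS4 to 0.23 for MCM10. In the DTMYC response to dTAG47 the same offsets gave 19 members lower and none higher, where 15.3% of genes were lower and 10.5% higher.

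**Figure D5:**
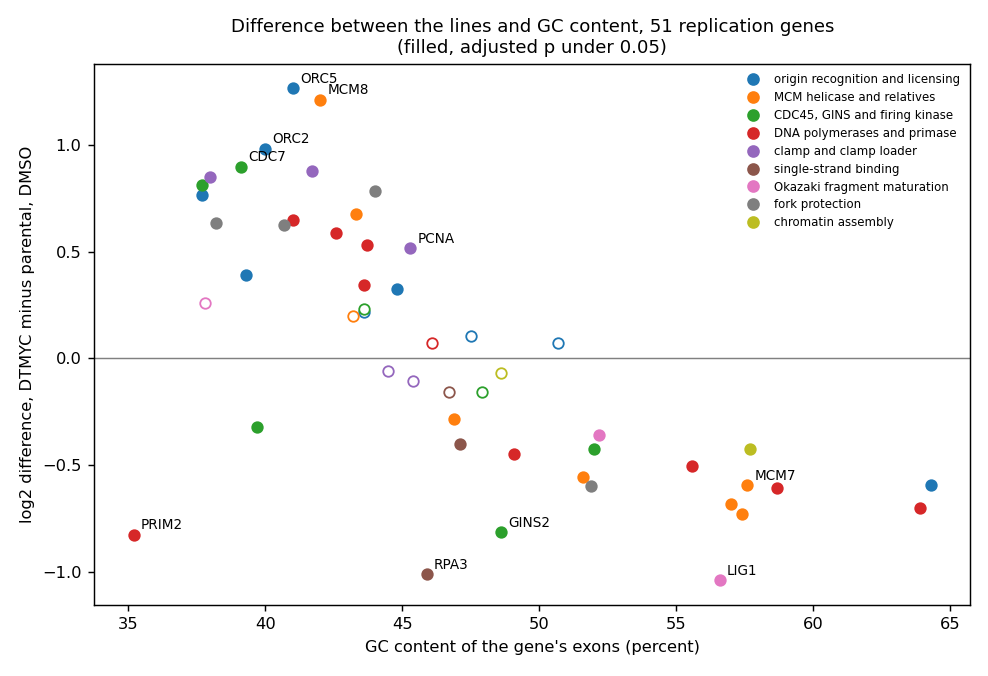
log2 difference of mRNA between DTMYC and parental cells in DMSO (vertical axis) against the GC content of the exons in percent (horizontal axis) for 51 members, coloured by role; filled points passed the test. Points fall from upper left to lower right (r = -0.70), with PRIM2, at 35.2% GC and -0.83, away from the trend.

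Per kilobase of exon length, the scale on which genes can be compared, PCNA was the most abundant member in DTMYC cells in DMSO at 219 ± 7.19 CPM per kb (SD, n = 3). MCM7 followed at 109 ± 6.34, MCM3 at 97.6 ± 4.39, MCM2 at 77.4 ± 6.20 and FEN1 at 62.7 ± 3.01 CPM per kb. MCM6 (56.9 ± 1.43) and MCM4 (54.5 ± 0.795) came next, and ORC4 was the lowest at 5.79 ± 0.384. Of the neighbours in the top 7, PCNA was set apart from MCM7 by more than both SDs, and MCM6 and MCM4 differed by little more than theirs.

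The 5 genes that fell in DTMYC cells were thus among the 7 most abundant members per length, together with MCM2 and MCM6. A threshold on p favours genes with many reads, so this rank does not place the fall in abundant genes alone. RFC3, with the most negative estimate, ranked 12. The 24 members lower in the fit on the 6 DTMYC libraries included ORC5, PRIM1 and TIPIN, ranked 38, 40 and 47. In parental cells in DMSO the order at the top differed, with MCM7 at 165 ± 13.1, PCNA at 153 ± 8.92 and MCM3 at 144 ± 11.2 CPM per kb, which lay within about 1 SD of their neighbours.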

How the data were processed

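The 52 genes and the other lists were chosen with earlier results of these data known. The RNA-seq and PRO-seq tables hold raw read counts per gene that the authors deposited, PRO-seq for gene body and promoter-proximal windows. The MYC ChIP-seq and ATAC-seq peak lists carry the authors' peak score, one list per library. Per the submitters' processing notes, the tools were cutadapt, STAR and Bowtie2 among others, with featureCounts, MACS2, DiffBind and DESeq2, on build hg19. Neither their versions nor the strand counted is given in the sources used here. The PRO-seq table also holds a gene body signal, deposited by the authors as a count over a length (a density), used here only to recover that length.

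Counts were tested in R 4.3.3 with edgeR 4.0.16 (filterByExpr, TMM factors, glmQLFit, glmQLFTest) across all genes, on all 12 RNA-seq libraries or the 4 PRO-seq libraries, with Benjamini-Hochberg adjusted p under 0.05 as the threshold. Levels are TMM-scaled CPM and standard errors are on the log2 scale. DESeq2 1.42.0 was an alternative. Scripts were tested on simulated data. Genes described in full were those past the threshold in a dTAG47 comparison, the 4 largest differences each way between the lines, and those with a MYC region in both DMSO libraries; for other lists, up to 2 past the threshold per list, with the third S phase regulator added after its value was seen. Start sites came from GENCODE v44 lifted to GRCh37. Alternatives were other scalings, no filter, a replicate block, fewer libraries and other peak rules. Same-numbered RNA-seq libraries did not all deviate together (correlations of -0.048 to 0.085 in 3 DTMYC pairs and 0.048 to 0.367 in 3 parental pairs), so the numbers were not used as pairs. In PRO-seq the 2 libraries of a group deviate as mirror images, so the same-numbered pairs share 1 value, 0.639, and the crossed pairs its negative. Pairing by number was run there only as an alternative.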

Additional observations from a re-analysis of the deposited data

How the results depend on the processing

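The DTMYC count of 5 members called was 1 with RLE factors, 0 with upper quartile factors, 2 without the filter on low counts, 24 with only the 6 libraries compared and 19 with GC and length offsets; DESeq2 gave 7. Leaving out 1 library gave 0 to 18, the 18 without parental DMSO library 3, and no alternative called a member higher. The parental count of 0 became 2 with GC and length offsets and 0 to 5 on leaving out 1 library (5, of which 3 higher, without parental DMSO library 3). Without that library 9.17% of all genes were higher and 10.9% lower in the parental response. The difference of the responses, also 0, became 10, all lower, with GC and length offsets and 0 to 9 on leaving out 1 library, 9 without parental DMSO library 3 and 1 (MCM7) without parental DMSO library 2. The counts between the lines, 39 and 41, stayed within 1.5 times under every alternative run (37 to 45 in both on leaving out 1 library), and upper quartile factors shifted the median of all genes by -0.12 in DMSO and -0.15 in dTAG47. Under GC and length offsets the signs turned for ORC3 (-0.082), CDC45 (0.0046), FEN1 (0.103) and CHAF1A (0.0406) in DMSO and for RFC3 (-0.120), DNA2 (-0.190) and TIPIN (-0.133) in dTAG47. Causes were not tested.

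Replicate numbers are shared between groups. The deviations of same-numbered RNA-seq libraries correlated at 0.085, -0.011 and -0.048 in DTMYC, at 0.324, 0.048 and 0.367 in parental cells and at -0.2 to 0.214 between the lines, so the pairing is not shown; with the replicate block the DTMYC count was 3. In PRO-seq the 2 same-numbered pairs share 1 value, 0.639. There the replicate block gave 18 members against 0 without it, 17 lower, among them MCM3, MCM4, MCM7 and PCNA, and 1 higher. With the block 15.9% of all genes were lower and 16.6% higher. Promoter-proximal and pausing counts stayed at 0.

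MYC regions were found at 13 members with a score of at least 50 and at 10 to 18 on leaving out a DMSO library, against 22. ATAC-seq gave 46 to 50 against 48. Only 2 PRO-seq libraries per group and few promoter-proximal reads limit what could be detected.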
